A study of Mus musculus with 4 samples.

Results

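Epidermal growth factor (EGF) family ligands and their ERBB receptors were examined by RNA-seq in organoids of the mouse small intestine, epithelial cultures kept in a matrix gel. The members were 10 named genes, 7 ligands (Areg, Ereg, Hbegf, Egf, Tgfa, Btc and Epgn) and 3 receptors (Egfr, Erbb2 and Erbb3), found by symbol among 55416 gene identifiers. The adult group held 2 libraries of organoids from C57BL/6 mice of 4 to 8 weeks, and the fetal group 2 libraries of organoids from C57BL/6 embryos at E15.5. All 4 libraries were poly-A selected from organoids kept in the same commercial medium (IntestiCult), with no other treatment or allele named in the labels; the growth factors in that medium are not given there. The labels do not say whether the replicates came from separate animals or cultures, so a p-value here covers the spread of these 4 libraries alone, and that spread may be technical.

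Ligands of the EGF family are made as membrane-bound precursors and are released by metalloproteases of the ADAM family. They bind EGFR, and some also bind ERBB4; binding joins receptors into pairs that signal through RAS and ERK, through phosphoinositide 3-kinase and AKT, and through STAT factors. ERBB2 has no known ligand of its own and acts as a partner, while ERBB3 has a weak kinase, binds neuregulins and couples well to phosphoinositide 3-kinase. In the intestine this pathway drives division of crypt cells, and EGF is a usual component of organoid media.

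The libraries held 10862147 to 13061585 estimated counts. Mitochondrial transcripts took 17.5% and 17.6% of adult counts and 6.98% and 7.82% of fetal counts. All 8 epithelial markers were present in every library. Krt8 stood at 1018 ± 25.6 CPM (counts relative to the library size after TMM scaling, with SD, n = 2) in adult and 2009 ± 11.8 CPM in fetal. Krt19 stood at 576 ± 6.40 and 1431 ± 1.43 CPM. These markers did not move together (adjusted p under 0.05 by edgeR): 4 were higher in fetal, 3 were lower and Cdx2 was not called. The lower ones were Epcam (956 to 733 CPM), Vil1 and Cldn7. Of all tested genes 33.9% were higher and 32.7% lower. The 12 mesenchymal markers summed to 5.08 and 5.82 CPM in adult libraries and to 69.4 and 67.1 CPM in fetal libraries. In adult Col1a2, Col3a1, Dcn, Lum, Twist1, Twist2 and Foxf1 were at 0. The collagens led the fetal sum, with Col3a1 at 26.0, Col1a1 at 17.5 and Col1a2 at 9.77 CPM. Of the 7 mesenchymal markers tested 6 were higher in fetal. Pdgfrb was not called, at 1.75 CPM in adult and 1.59 CPM in fetal. The other 5 were not tested, and Twist1, Twist2 and Foxf1 had at most 2 counts in any library. The 10 Paneth cell markers summed to 1744 and 1774 CPM in adult and 323 and 325 CPM in fetal, led in adult by Itln1 and Defa17; 7 were lower and Mmp7, the highest in fetal, was higher. Summed enterocyte markers went from 1335 and 1340 to 44.7 and 46.7 CPM, led in adult by Sis and Fabp2, and all 8 were lower. Summed goblet cell markers went from 2198 and 2289 to 294 and 311 CPM, led in adult by Fcgbp and Muc2. Of these 8 goblet cell markers 6 were lower and Spdef was not called. Clca1 was higher, at 1.58 and 0.904 CPM in adult and 5.45 and 6.39 CPM in fetal. Endothelial markers summed to at most 0.602 CPM in any library (Pecam1 and Erg the most abundant), immune markers to at most 11.2 CPM (Cd68 and Lyz2) and neural and glial markers to at most 14 CPM (Ret the most abundant). In bulk RNA, fewer cells of a type and less RNA per cell cannot be told apart. The part of these cell types in the results below was not tested.

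Of the 10 members, 9 passed the filter on low counts. Of these, 7 rose in fetal organoids (Ereg, Areg, Btc, Tgfa, Egfr, Erbb2 and Hbegf), Erbb3 was lower by edgeR, and Egf was not called (quasi-likelihood test of edgeR, p adjusted by Benjamini-Hochberg over all tested genes, under 0.05). The background is high in this comparison: 66.5% of the 14271 tested genes were called, 33.9% higher and 32.7% lower. Changes of at least 2-fold were found in 3 members, all higher (Ereg, Areg and Btc), against 25.3% of tested genes by that rule, 13.6% higher and 11.6% lower. The groups did not overlap in scaled CPM for any of the 9 tested members, which holds for 82.7% of tested genes; 7 members, and 41.9% of tested genes, were apart and higher in fetal. The median log2 difference was 0.65 over the 9 tested members and 0.01 over all tested genes.

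**Figure D1:**
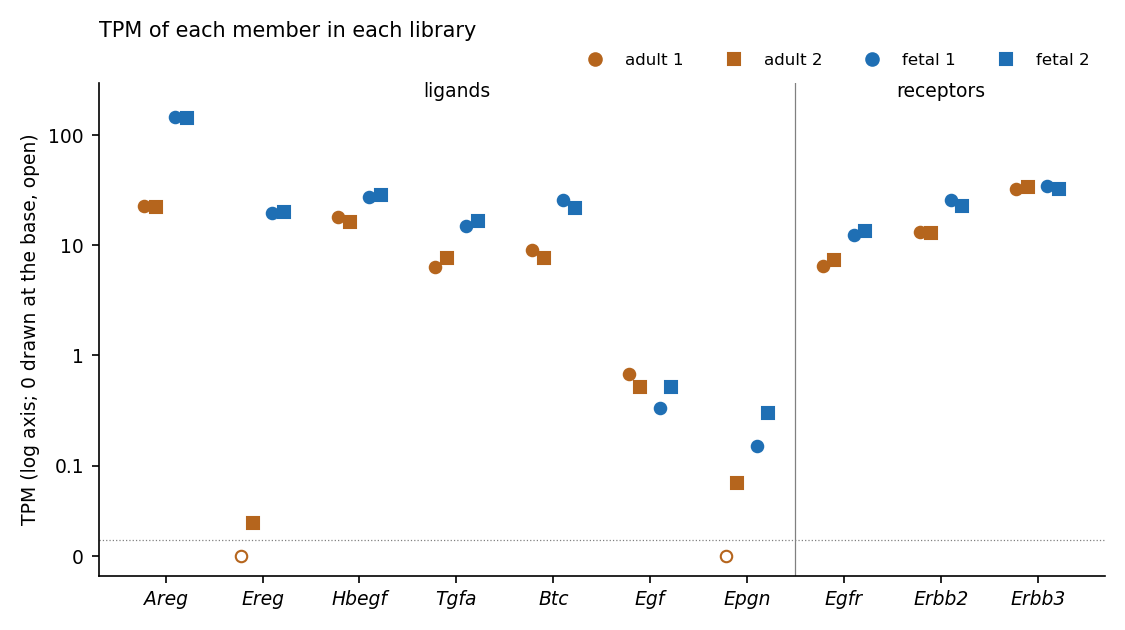
TPM of each of the 10 members in each of the 4 libraries on a log axis, with values of 0 drawn as open symbols at the base; circles are replicate 1 and squares replicate 2, orange adult and blue fetal. Ereg goes from 0 and 0.03 TPM in adult to 19.6 and 19.9 TPM in fetal libraries, whereas the 4 Erbb3 values lie between 32.2 and 34.5 TPM.

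Amphiregulin (Areg, ENSMUSG00000029378), a low-affinity EGFR ligand, was the most abundant ligand in both groups and rose 4.90-fold. Its scaled CPM was 21.6 and 21.1 in adult and 104 and 105 in fetal libraries. The libraries of each group lay close together and the groups were far apart (log2 difference 2.29 ± 0.06 SE; adjusted p = 7.62e-12 by edgeR). Leaving out any library in turn, the log2 difference of Areg stayed between 2.27 and 2.31. In TPM, which allows levels to be compared between genes, Areg stood at 22.8 and 22.2 in adult and 145 and 143 in fetal.

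Epiregulin (Ereg, ENSMUSG00000029377), a ligand of EGFR and ERBB4, was nearly silent in adult organoids. Adult libraries had 0 and 1 counts of it, fetal libraries 712 and 682. Fetal organoids thus held 50.8 ± 1.54 CPM (SD, n = 2) of a transcript that 1 adult library did not contain at this depth, where a count of 0 allows up to 0.263 scaled CPM. The ratio of summed counts was 1085 (95% counting interval 194 to 42895). The fitted log2 fold change rests on the single adult count: it was 9.80, and 12.36 without adult replicate 2, the library that holds that count, against 8.84 without adult replicate 1. On log2(TPM + 1) with limma the difference was 4.35 (adjusted p = 6.89e-05), a scale that understates the change of low genes.

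Betacellulin (Btc, ENSMUSG00000082361), which binds EGFR and ERBB4, rose 2.20-fold. It measured 20.3 and 18.2 CPM in adult and 44.9 and 39.9 CPM in fetal libraries (log2 difference 1.14 ± 0.09 SE; adjusted p = 1.77e-07 by edgeR). The fetal libraries differed from each other more for Btc than for Areg, and both lay above the adult ones. Epigen (Epgn, ENSMUSG00000035020), a low-affinity ligand, had 0 and 1 counts in adult and 2 and 3 counts in fetal libraries. With at most 3 counts in any library, Epgn was not tested and no fold is given.

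Epgn, Ereg, Areg and Btc follow each other in this order among the protein-coding genes of mouse chromosome 5 in RefSeq (GRCm38.p6). The levels within the cluster were unlike each other: in fetal libraries Areg had 144 ± 1.29 TPM, Btc 23.7 ± 2.75 TPM, Ereg 19.7 ± 0.226 TPM and Epgn 0.225 ± 0.106 TPM (SD, n = 2). Of the genes that flank the cluster, Mthfd2l, a mitochondrial folate enzyme next to Epgn, was not called at 13.8 and 10.4 CPM in adult and 14.3 and 13 CPM in fetal (log2 difference 0.16 ± 0.14 SE; adjusted p = 0.331 by edgeR). Parm1, next to Btc, rose from 19.4 and 21.3 CPM to 60.0 and 64.4 CPM (log2 difference 1.62 ± 0.08 SE; adjusted p = 1.47e-09 by edgeR). A rise was thus called for Ereg, Areg, Btc and the neighbour Parm1, where 33.9% of all tested genes were higher. Mthfd2l was tested and not called, and Epgn was not tested. Both flanking genes were chosen by position alone. Gm19610 overlaps Ereg in RefSeq and held a mean of 3.82 counts per library.

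The 250 bases before the annotated start of 3 of these neighbours are shown because the genes lie side by side and yet differ in level, from abundant (Areg) to near silent (Epgn). The sequences are RefSeq promoters (GRCm38.p6), read 5′ to 3′ on the gene's strand, and 7 of the 10 members matched an entry. Ereg, Hbegf and Erbb3 had no entry. Capitals mark every match, on either strand, to 5 motifs. These were the AP-1 site TGANTCA, the cyclic AMP response element TGACGTCA, the TEAD site written here as GGAATG, the GC box with the letters GGGCGG, and finally the TATA box with the letters TATAAA.
Areg, chr5:91139349-91139598, plus strand: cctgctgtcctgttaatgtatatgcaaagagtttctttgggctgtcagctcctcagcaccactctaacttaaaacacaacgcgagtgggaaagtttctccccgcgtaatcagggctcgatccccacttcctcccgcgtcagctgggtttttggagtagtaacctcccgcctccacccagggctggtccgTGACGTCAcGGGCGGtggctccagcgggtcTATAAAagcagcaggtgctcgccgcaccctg
Btc, chr5:91402995-91403244, minus strand: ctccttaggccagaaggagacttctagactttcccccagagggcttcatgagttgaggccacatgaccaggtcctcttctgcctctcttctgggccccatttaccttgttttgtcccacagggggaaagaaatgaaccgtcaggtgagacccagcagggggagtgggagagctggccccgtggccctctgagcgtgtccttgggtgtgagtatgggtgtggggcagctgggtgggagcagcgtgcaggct
Epgn, chr5:91027267-91027516, plus strand: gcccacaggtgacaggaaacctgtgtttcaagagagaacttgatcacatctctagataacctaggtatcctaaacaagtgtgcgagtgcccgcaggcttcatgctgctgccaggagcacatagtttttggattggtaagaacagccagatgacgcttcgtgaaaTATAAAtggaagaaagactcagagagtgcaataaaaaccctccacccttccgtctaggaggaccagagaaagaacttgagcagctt
The Areg window held TGACGTCA at 61 to 54 bases before the start, GGGCGG at 52 to 47 and TATAAA at 31 to 26, with no overlap between them. Of 32851 promoter windows of the same length, 1.55% held TGACGTCA, 32.7% GGGCGG and 12.4% TATAAA. The Epgn window held TATAAA alone, at 86 to 81 bases before the start, and the Btc window held none of the 5 motifs. TGANTCA was found in none of the 3 windows and in 6.75% of all windows, and GGAATG likewise in none of the 3 and in 12.6% of all windows. Among the other members with an entry, Tgfa had a pair of GC boxes, Egfr had 1 GC box, Erbb2 had 1 GGAATG and Egf had no match. The bases after the Tgfa window were found in no GENCODE M21 transcript of Tgfa, so that start is uncertain. The same holds for the Egf window at chr3:129755323-129755572. A match is a description of the letters and does not show binding.

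Transforming growth factor alpha (Tgfa, ENSMUSG00000029999), a high-affinity EGFR ligand, rose 1.73-fold. Its scaled CPM was 23.2 and 28.0 in adult and 41.6 and 46.7 in fetal libraries (log2 difference 0.79 ± 0.09 SE; adjusted p = 8.02e-06 by edgeR). The groups did not overlap although the libraries of each group were spread more widely than for Areg. Heparin-binding EGF-like growth factor (Hbegf, ENSMUSG00000024486), which binds EGFR and ERBB4, rose least among the called ligands. It measured 35.3 and 31.8 CPM in adult and 40.7 and 41.8 CPM in fetal libraries, a 1.22-fold difference (log2 difference 0.29 ± 0.07 SE; adjusted p = 0.00291 by edgeR). Leaving out any library in turn, Hbegf lay between 0.21 and 0.37 on the log2 scale, with adjusted p up to 0.0332.

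Egf (ENSMUSG00000028017), the founding ligand of the family, was close to the limit of detection in both groups. It had 15 and 13 counts in adult and 10 and 14 counts in fetal libraries, or 1.31 and 1.31 against 0.699 and 1.07 scaled CPM. The difference was not called (log2 difference -0.57 ± 0.42 SE; adjusted p = 0.242 by edgeR), and in TPM the groups overlapped, at 0.68 and 0.52 in adult and 0.33 and 0.52 in fetal. A change of Egf was not detectable at this depth. Paneth cells are a known source of EGF and TGF-alpha in the crypt, and the summed Paneth markers given above were lower in fetal organoids. Tgfa was 1.73-fold higher there and Egf was not called. The part of Paneth cells in either was not tested.

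Summed over the 7 ligands, the level was 57.0 and 54.3 TPM in adult and 233 and 231 TPM in fetal libraries, a 4.17-fold difference. Areg made up 40.0% and 40.8% of the summed ligand TPM in adult and 62.3% and 62.1% in fetal. Hbegf, the next ligand in adult, went from 31.8% and 29.8% of the sum to 11.7% and 12.3%, while its own TPM rose from 18.2 and 16.2 to 27.4 and 28.4. Ereg made up 8.38% and 8.61% of the fetal sum and at most 0.0553% of the adult sum. Btc contributed 15.8% and 14.2% in adult and 11.0% and 9.42% in fetal, and Tgfa 11.1% and 14% against 6.43% and 7.19%. Egf was at 1.19% and 0.958% of the adult sum and 0.141% and 0.225% of the fetal sum. The shares compare ligands within a library, so the scaling between libraries cancels. This does not hold for the 4.17-fold difference or for the rise in Hbegf TPM, which compare libraries. The median log2 difference of all genes was 0.36 on log2(TPM + 1), against 0.01 with TMM. In scaled CPM Areg rose 4.90-fold and Hbegf 1.22-fold.

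**Figure D2:**
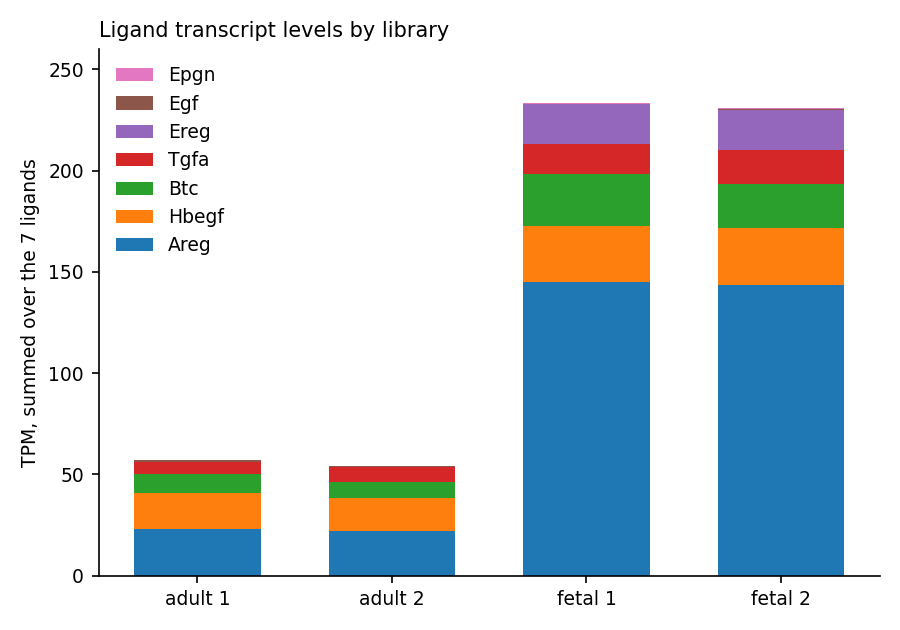
Summed TPM of the 7 ligands in each library, stacked by ligand from Areg at the base to Epgn at the top. The adult bars reach 57.0 and 54.3 TPM and the fetal bars 233 and 231 TPM, and Areg is the largest part of every bar.

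Of the receptors, 2 rose and 1 was lower, none by 2-fold or more, where 33.9% of all tested genes were higher and 32.7% lower. Egfr (ENSMUSG00000020122), the receptor that binds all 7 ligands, rose 1.57-fold, from 48.7 and 46.9 CPM in adult to 73.0 and 77.6 CPM in fetal libraries (log2 difference 0.65 ± 0.06 SE; adjusted p = 9.65e-07 by edgeR). Erbb2 (ENSMUSG00000062312), the partner without a ligand, rose 1.32-fold, from 53.6 and 51.6 CPM to 69.2 and 69.9 CPM (log2 difference 0.40 ± 0.06 SE; adjusted p = 4.79e-05 by edgeR). Both receptors were above the adult range in both fetal libraries, as were 41.9% of all tested genes. Mien1 overlaps Erbb2 in RefSeq and held a mean of 273 counts per library, and the sources used here do not say whether counting used the strand, so Erbb2 is uncertain to that extent.

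Erbb3 (ENSMUSG00000018166), the neuregulin receptor, was the most abundant of the 3 receptors in every library, and its direction depended on the scale. In scaled CPM it measured 159 and 169 in adult and 128 and 125 in fetal, 1.29-fold lower in fetal (log2 difference -0.37 ± 0.04 SE; adjusted p = 8.01e-06 by edgeR). With library totals in place of TMM factors the difference was -0.12 (adjusted p = 0.0269 by edgeR), and on log2(TPM + 1) it was 0.02 (limma, adjusted p = 0.85), with 32.2 and 34.1 TPM in adult against 34.5 and 32.7 TPM in fetal. The median of all genes lay at 0.25 with library totals and 0.36 on TPM, against 0.01 with TMM. Relative to that median, Erbb3 lay 0.11 to 0.45 lower on the log2 scale in all 15 alternatives, while Egfr lay 0.45 to 0.70 above it, Erbb2 0.32 to 0.71 and Hbegf 0.20 to 0.54. Areg lay 2.21 to 2.50, Btc 1.03 to 1.26 and Tgfa 0.63 to 0.95 above it.

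**Figure D3:**
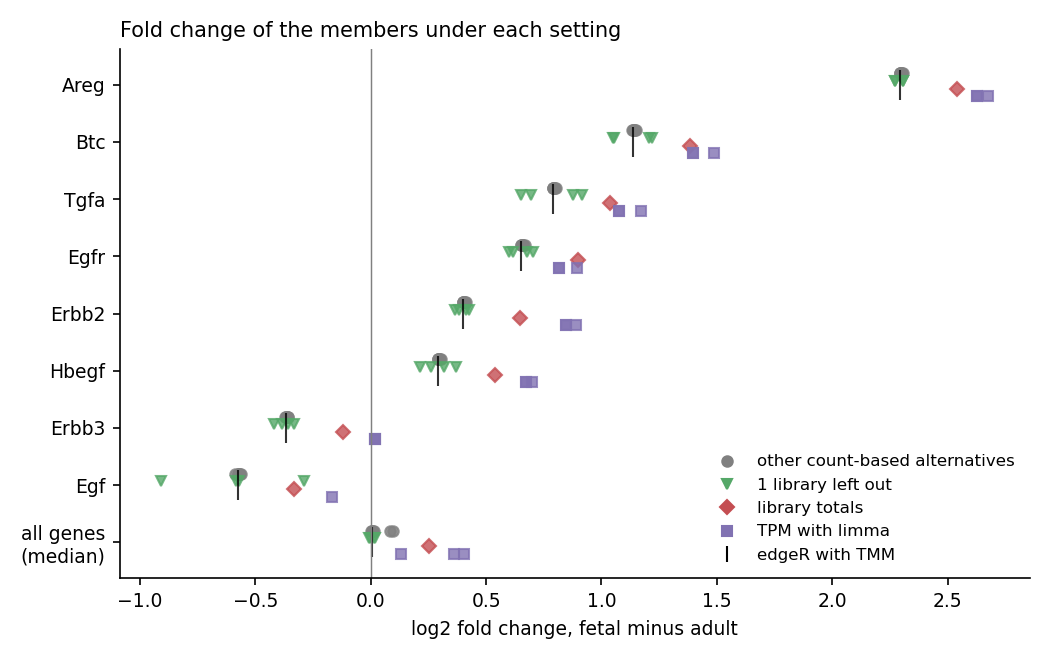
Log2 fold change (fetal minus adult) of 8 tested members and, in the last line, the median of all genes tested, with edgeR and TMM factors (black bars) and under each alternative (symbols); Ereg is left out because its adult level is near 0. Erbb3 goes from -0.37 with TMM to 0.02 on log2(TPM + 1), where the median of all genes goes from 0.01 to 0.36.

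Ratios within a library do not depend on the scaling between libraries. The TPM of Egfr was 0.202 and 0.217 of that of Erbb3 in adult and 0.362 and 0.415 in fetal libraries. Erbb2 was 0.411 and 0.378 of Erbb3 in adult and 0.747 and 0.700 in fetal. Neither ratio overlapped between the groups, and both were higher in fetal. Egfr over Erbb2 was 0.491 and 0.575 in adult and 0.484 and 0.593 in fetal, so the groups overlapped for this pair in TPM; in estimated counts the same ratio was 0.908 and 0.909 against 1.06 and 1.11. Erbb3 made up 62.0% and 62.7% of the summed receptor TPM in adult and 47.4% and 47.3% in fetal. Summed ligand over summed receptor TPM was 1.10 and 0.997 in adult and 3.21 and 3.34 in fetal. Areg over Egfr was 3.51 and 2.99 in adult and 11.6 and 10.6 in fetal, whereas Hbegf over Egfr overlapped, at 2.79 and 2.18 against 2.19 and 2.10. These ratios were not tested.

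In TPM the order of the members in both adult libraries was Erbb3, Areg, Hbegf, Erbb2 and Btc. Egfr (6.5 and 7.42 TPM) and Tgfa (6.35 and 7.60 TPM) followed and overlapped, and Egf, Epgn and Ereg were below 1 TPM. In both fetal libraries the order was Areg, Erbb3, Hbegf, Erbb2, Btc, Ereg, Tgfa, Egfr, Egf and Epgn. Erbb2 (25.8 and 22.9 TPM) and Btc (25.6 and 21.8 TPM) overlapped there, and the other neighbours in the fetal order did not. Areg and Erbb3 exchanged the top places between the groups, and Ereg moved from the end of the order to the middle.

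The genes whose pattern over the 4 libraries was closest to that of Ereg were Bex4, Grb10 and Krt6a, by the root-mean-square difference of log2 CPM centred on each gene's mean (0.21, 0.25 and 0.27) among 9488 genes. Krt6a, a keratin, had a ratio of summed counts of 754 (95% counting interval 135 to 29796). Bex4 measured 0.175 and 0.402 CPM in adult and 81.9 and 79.8 CPM in fetal libraries. No gene came within 0.1 of Ereg on this measure, while 1386 genes came within 0.1 of Erbb3, led by Ubn1, Ndufb10 and Nfkb1. Those 3 genes shared with Erbb3 the change of sign on log2(TPM + 1), at 0.11, 0.01 and 0.03. With 4 libraries in 2 groups, this measure reflects little more than the size of the group difference.

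Erbb4, the remaining ERBB receptor, had 0 counts in all 4 libraries, which allows up to 0.230 to 0.276 CPM of the library totals. The neuregulin genes Nrg2 and Nrg3 likewise had 0 counts in all 4. Nrg1, a ligand of ERBB3 and ERBB4, had 1 and 2 counts in adult and 19 and 13 counts in fetal libraries, a ratio of 8.30 (95% counting interval 2.60 to 42.4; log2 difference 2.96; adjusted p = 0.00119 by edgeR). The fitted value of Nrg1 was 3.58 without adult replicate 2 and 2.47 without adult replicate 1 (adjusted p 0.00722 and 0.0334). The summed mesenchymal markers given above were also higher in fetal organoids, and their part in the Nrg1 counts was not tested. Nrg4, a ligand of ERBB4, stood at 4.38 and 3.82 CPM in adult and 2.45 and 2.89 CPM in fetal libraries, and passed the test narrowly (log2 difference -0.62 ± 0.25 SE; adjusted p = 0.0447 by edgeR). That call was lost when any single library was left out (adjusted p 0.0549 to 0.237), with the replicate number as a block (0.0713), with DESeq2 (0.259), with library totals (0.201) and on log2(TPM + 1) with limma (0.456).

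Genes that release or deliver the ligands rose in 9 of 10 tested cases and none fell, with Cnih4 not called and 4 of the 14 not tested; of all tested genes 33.9% were higher and 32.7% lower. Rhbdf1, an iRhom that controls the protease ADAM17, measured 12.2 and 13.5 CPM in adult and 57.2 and 53.7 CPM in fetal libraries (log2 fold change 2.12 ± 0.08 SE). Adam8 rose from 1.05 and 1.00 CPM to 9.99 and 9.29 CPM, and Adam15 from 8.85 and 8.33 CPM to 19.8 and 20.9 CPM. Adam17, the main protease for amphiregulin and TGF-alpha, rose from 65.5 and 61.8 CPM to 107 and 118 CPM, and Adam10, which acts on EGF and betacellulin, from 202 and 198 CPM to 228 and 241 CPM; both were chosen for their role, outside the rule for named genes. Adam12, named after its values were seen, had 0 counts in adult and was at least 4.29-fold higher in fetal, at 1.05 and 1.37 CPM. Over the 10 tested genes the median log2 difference was 0.97, against 0.01 for all genes tested. This list, like the others below, was chosen with earlier results of these data known, and the contrast with all genes was not tested.

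Inhibitors of the receptors and genes of their turnover split into 12 higher and 9 lower of 21 (median log2 fold change 0.23), beside 33.9% and 32.7% of all tested genes. The largest rises were in Grb10, an imprinted adaptor best known for binding the insulin receptor, from 0.526 and 0.703 CPM to 143 and 137 CPM, and in Sh3kbp1, which works with CBL in receptor endocytosis, from 2.63 and 1.91 CPM to 42.3 and 42.5 CPM. The receptor phosphatase Ptprj rose from 41.2 and 41.0 CPM to 100.1 and 104 CPM. Lrig1, an ERBB inhibitor and a marker of crypt stem cells, fell from 194 and 196 CPM to 102 and 101 CPM, and its relative Lrig3 from 29.8 and 30.2 CPM to 12.5 and 14.5 CPM. Socs4 also fell, by 0.53 on the log2 scale. With library totals 4 genes of this list were lower, and on log2(TPM + 1) 1 was.

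The adaptors and the RAS to ERK cascade gave 7 higher and 12 lower of 21, all but 3 by less than 2-fold; the background was 33.9% higher, near the share in this list, and 32.7% lower. Hras, a RAS protein, rose from 23.1 and 24.7 CPM to 50.7 and 47.7 CPM, Nras from 93.6 and 93.9 CPM to 135 and 135 CPM, and the adaptor Shc1 by 0.34 on the log2 scale. The scaffold Ksr1 fell from 19.9 and 22.8 CPM to 8.80 and 8.45 CPM, the docking protein Gab2 from 23.6 and 20.2 CPM to 10.6 and 10.4 CPM, and the RAS exchange factor Sos2 by 0.60 on the log2 scale. This split turned with the scale: with library totals 6 genes were lower, and on log2(TPM + 1) 12 were higher and 2 lower. In the phosphoinositide 3-kinase, AKT and STAT branch 7 of 16 tested genes were higher and 7 lower, against the same background. Pik3r1, the regulatory subunit of the kinase, fell from 234 and 224 CPM to 65.4 and 66.8 CPM, and Plcg1, a phospholipase, fell by 0.83 on the log2 scale. The kinases Src, Pik3cb and Akt2 rose, by 0.75, 0.72 and 0.68 on the log2 scale. In this branch 5 genes were lower with library totals and 1 on log2(TPM + 1). On log2(TPM + 1) with limma the falls of Lrig1, Socs4, Sos2 and Plcg1 were not called (adjusted p = 0.0589, 0.248, 0.0866 and 0.177). Without the filter on TPM the falls of Gab2 and Ksr1 were not called either (limma, adjusted p = 0.109 and 0.0574).

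Genes that respond to ERK rose in 10 of 17 cases, fell in 4 (Egr1 among them) and were not called in 3 (median log2 fold change 0.44), where 33.9% of all tested genes were higher and 32.7% lower. Fosl1, an AP-1 subunit, rose from 0.351 and 0.402 CPM to 11.8 and 15.4 CPM, Ier3, an immediate early gene, from 8.41 and 7.93 CPM to 94.7 and 92.6 CPM, and Spry4, a feedback inhibitor, from 1.40 and 1.61 CPM to 7.96 and 6.62 CPM. Fos fell from 215 and 212 CPM to 145 and 145 CPM, the phosphatase gene Dusp5 by 0.62 and Etv5 by 0.27 on the log2 scale. Egr1 fell from 253 and 253 CPM to 215 and 218 CPM. In TPM the direction of Egr1 was the opposite, at 102 and 101 in adult and 115 and 113 in fetal libraries. On log2(TPM + 1) none of the 17 was lower: Fos and Dusp5 were not called (limma, adjusted p = 0.0593 and 0.148) and Etv5 lay at 0.09. With library totals Etv5 lay at -0.02 and was not called (edgeR, adjusted p = 0.835), nor was it with DESeq2 (Wald test, adjusted p = 0.149). Without adult replicate 1 and without fetal replicate 2 Etv5 was not called either, at -0.23 and -0.22 on the log2 scale.

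**Figure D4:**
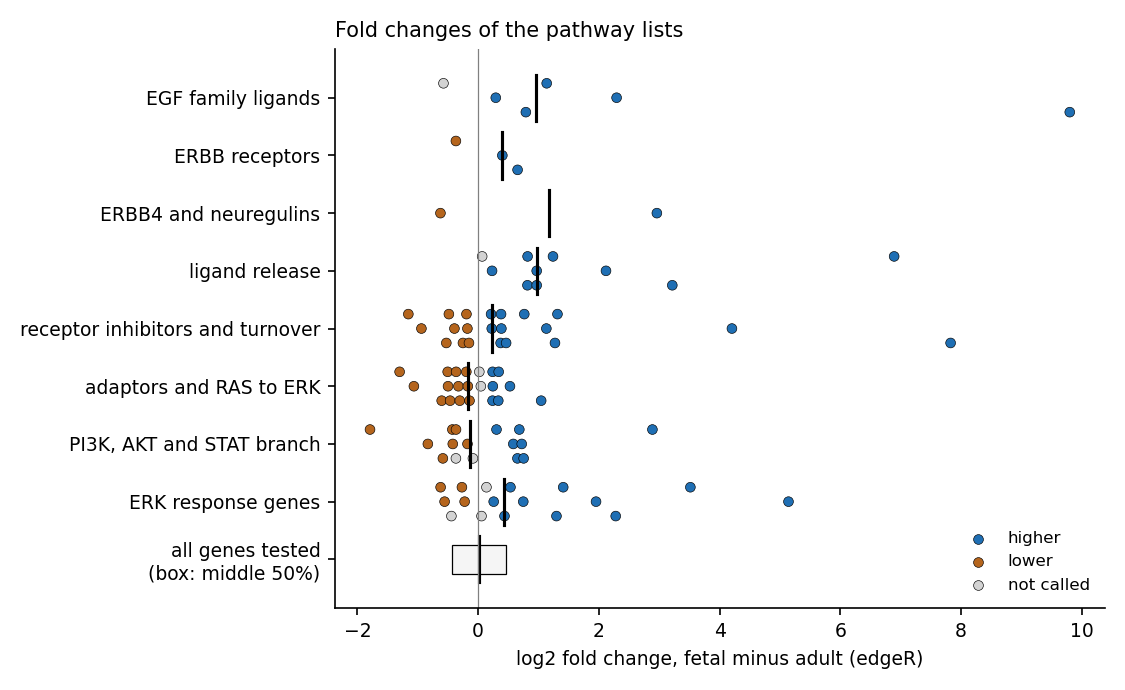
Log2 fold change (fetal minus adult, edgeR) of each tested gene in the EGF family and the 6 pathway lists; blue points were called higher, orange lower and grey not called, black bars are list medians, and the box is the middle 50% of all genes tested. The ligand and ligand release lists have medians of 0.96 and 0.97, and the adaptor and phosphoinositide 3-kinase lists -0.17 and -0.13.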

How the data were processed

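Poly-A RNA of 2 adult and 2 fetal organoid libraries was sequenced. The deposited tables give, per the file headers, RSEM expected counts (estimated counts, not normalized) and TPM, which the authors scaled for gene length. STAR 2.7.3a, RSEM 1.3.3, Trim Galore and FastQC stand in the submitters' processing notes, with the builds GRCm39 and mm10 and no roles; no annotation release is named there. Of 55416 identifiers, 52083 had a symbol in GENCODE M21.

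After rounding, expected counts went into edgeR 4.0.16 (R 4.3.3): TMM factors, filterByExpr by group, quasi-likelihood test of fetal against adult, Benjamini-Hochberg adjustment over all 14271 tested genes. The standard error is the log2 fold change divided by the root of the F statistic. Scaled CPM uses the TMM factors (0.918 in both adult, 1.10 and 1.08 in fetal libraries). Errors of means are SD over 2 libraries. Floors of 3 counts per library and 95% Clopper-Pearson intervals cover counting error only. Libraries of a group differed by more than sampling noise (chi-square per degree of freedom 3.30 adult, 2.81 fetal), so none was treated as a library deposited again; this does not show separate animals or cultures. The steps were tested on simulated counts in which few genes changed, as many up as down. In the data themselves 66.5% of tested genes were called, so that test does not cover the scaling between these groups.

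The members and lists were chosen with earlier results of these data known. Named genes are the members; in each pathway list up to 3 called rises and 3 called falls with at least 5 CPM in a group, plus Erbb4 and the neuregulins; the 2 most abundant markers of each cell type; and the 3 genes most like the member with the largest called rise and fall, among named genes reaching 10 CPM. Any other gene was chosen for its position or role or after its values were seen. A few genes under this rule are not reported here. Alternatives were other scaling (DESeq2 size factors, upper quartile, library totals, TMM without mitochondrial genes and the 20 most counted), DESeq2 1.42.0, no filter, a stricter filter (1 CPM in 2 libraries), limma 3.58.1 on log2(TPM + 1) or log2(TPM + 0.1) with at least 1 TPM in 2 libraries or no filter, each library left out, and a replicate block.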

Additional observations from a re-analysis of the deposited data

How the results depend on the processing

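Across the 15 alternatives, the 7 members called higher with edgeR kept that direction and call, and 130 of 133 member values kept direction and side of the threshold. The 3 exceptions were Erbb3 on TPM with limma, at 0.0166 with a pseudocount of 1 (with and without the filter) and 0.0171 with 0.1 (cause not tested), so that 0 members were lower in these 3 settings. Requiring at least 2-fold left 3 members higher and 0 lower. Leaving out each library in turn, where the lone library of a group is assumed to vary like the other group, 7 members were higher and 1 lower in each case. The ranges were 2.27 to 2.31 for Areg, 8.84 to 12.36 for Ereg, 1.05 to 1.22 for Btc, 0.65 to 0.92 for Tgfa, 0.21 to 0.37 for Hbegf, -0.91 to -0.29 for Egf, 0.60 to 0.70 for Egfr, 0.37 to 0.43 for Erbb2 and -0.42 to -0.33 for Erbb3. Genes called lower among all genes went from 4664 to 2973 with library totals and to 1796, 1752 and 1728 on TPM (pseudocount 1, pseudocount 0.1 and no filter). In these 4 settings, in the same order, 6979, 6957, 6821 and 6473 were higher. Requiring 2-fold gave 1943 higher and 1662 lower, and leaving out each library in turn 4447 to 4583 were higher and 4181 to 4463 lower. Over the pathway lists 46 genes were higher and 33 lower; the lower ones numbered 17 with library totals and 4, 4 and 2 on TPM, and at least 2-fold changes 18 and 4, and leaving out each library 44 to 47 and 28 to 30. Among other named genes, 660 of 716 values kept direction and side of the threshold, 44 were no longer past it and 12 changed sign, all on TPM: Etv5 (0.0949 with a pseudocount of 1, filtered or not, and 0.104 with 0.1), Ndufb10 (0.00998 and 0.01005), Nfkb1 (0.0297 and 0.0303) and Ubn1 (0.11 in each). The replicate block gave 4765 higher and 4584 lower genes and 7 and 1 members, and of the named genes lost the call of Nrg4 alone; the replicate differences of the groups correlated at -0.07 across genes, and the labels do not say that a number marks a shared batch. Depth limits Egf, Epgn, Nrg1 and Erbb4, at 0 to 19 counts per library.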
